A study of Homo sapiens with 6 samples.

Results

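The G1/S transition and DNA replication genes were examined as a list of 50 genes whose products turn on, license, start and carry out copying of the genome. Members were the genes of that list, and their probe sets were all those whose symbol in the platform annotation equals a member. Each gene's value is that of its brightest probe set unless another is named. All 50 of 50 had a probe set above the filter on dim genes and were among the 16868 genes tested. DMS-53 is a human small cell lung cancer cell line. It was kept for 24 h in RPMI medium with 25 µM Dp44mT, a thiosemicarbazone chelator of iron and copper that crosses membranes, in RPMI medium with 250 µM DFO (desferrioxamine), a siderophore that enters cells poorly, or in RPMI medium alone (control). There were 2 Affymetrix arrays in each of the 3 groups, called array 1 and array 2 after the set given in each title. Nothing in the labels says that the arrays of a group came from separate cultures, so a p-value measures array-to-array spread alone, and that spread may be technical.

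In G1, the origin recognition complex (ORC) together with CDC6 and CDT1 loads the MCM2-7 helicase onto origins, a step called licensing that geminin (GMNN) blocks outside G1. At the start of S phase the kinase CDC7 with its partner DBF4 fires origins, CDC45 and the GINS complex join MCM2-7 to form the active helicase, and the polymerases, the sliding clamp PCNA and its loader RFC copy the strands. Many of these genes are transcribed in G1/S by E2F factors, of which E2F1, E2F2 and E2F3 activate and E2F7 and E2F8 repress. Iron chelators are known to deprive ribonucleotide reductase, the enzyme that makes deoxynucleotides, of its iron.

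Values are log2(intensity + 16) after quantile normalization, called levels below. Differences are chelator-minus-control differences of group means on that scale, with the standard error (SE) of limma's moderated test. The deposited array medians were 83.6 and 49.9 for Dp44mT, 85.5 and 63.0 for DFO, and 88.9 and 88.8 for control, so both chelator arrays of set 2 were dim. Of 13 small cell lung cancer and epithelial markers, 12 had a probe set with 1 symbol and all 12 were above the filter; their mean level was 10.5 and 10.3 in Dp44mT, 10.8 and 10.7 in DFO and 11.0 and 11.2 in control. Of these 12, INSM1 fell most, at 9.30 and 8.82 in Dp44mT, 10.30 and 10.15 in DFO and 12.17 and 12.68 in control, followed by NCAM1 and GRP. KRT18 and KRT19 were higher in DFO than in control, and the rest of the 12 changed less than GRP. Some fibroblast markers were higher on the set 2 chelator arrays. The mean level of 8 such genes was 6.94 and 7.46 in Dp44mT, 6.77 and 7.40 in DFO and 6.93 and 6.25 in control, with 6 of 8 above the filter and PDGFRB and FAP below it. DCN, the matrix proteoglycan decorin, stood at 7.14 and 9.51 in Dp44mT, 7.14 and 8.92 in DFO and 7.59 and 5.70 in control, and the collagen genes COL1A2 and COL3A1 had the same pattern. The other 5 markers differed less or the other way: LUM, for example, was at 6.52 and 6.28 in Dp44mT, 6.22 and 6.51 in DFO and 6.48 and 6.74 in control. The mean level of 5 endothelial markers was 6.36 and 6.95 in Dp44mT, 6.64 and 6.96 in DFO and 6.37 and 6.07 in control. Of these, PECAM1 had the pattern of DCN, at 9.17 and 10.87 in Dp44mT, 8.75 and 10.50 in DFO and 9.32 and 8.04 in control. VWF had it to a smaller degree, KDR and TEK did not, and CDH5 was below the filter. The mean of the 4 leukocyte markers with a probe set stayed between 5.94 and 6.48 on the 6 arrays. Of these, PTPRC was below the filter, at 4.73 and 6.10 in Dp44mT, 4.73 and 5.41 in DFO and 4.57 and 4.89 in control. On the set 2 chelator arrays CD14 exceeded the set 2 control array by less than PTPRC, and CD3E and LYZ did not exceed it. The part of these genes in the results below was not tested. A difference without the set 2 chelator arrays, meaning that of the lone set 1 array from the mean of the 2 control arrays, is given for the members described by array wherever it moved by over 1.5 times. Each value is from bulk RNA, in which fewer cells in S phase and less RNA per cell cannot be told apart. For ACTB, the 3' probe set over the 5' one gave ratios from 1.14 to 1.41.

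No replication gene passed the test in either chelator, while most stood lower than in control. In Dp44mT, 46 of 50 members had a negative difference (92.0%, against 48.3% of all genes). The member median was −0.53, against 0.03 over all genes tested. At an adjusted p under 0.05 in limma, 0 of the 50 were called, where 3.37% of all genes were called. The count at an unadjusted p under 0.05 was 20, all lower (40.0% of members, where 24.1% of all genes passed in either direction). Both Dp44mT arrays lay below both control arrays for 35 members (70.0%, against 33.1% of all genes) and above both for 2, E2F7 and ORC4, where 30.3% of all genes did so. PRIM1, the catalytic subunit of primase, came closest to the threshold (adjusted p = 0.0537).

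In DFO, 39 of 50 members had a negative difference (78.0%, against 53.5% of all genes). The member median was −0.23, against −0.03 over all genes. Again 0 of 50 were called, where 1.10% of all genes were called, and the smallest adjusted p was 0.180, for PRIM1. At an unadjusted p under 0.05 in limma there were 7 of 50 members, all lower. Among all 16868 genes 13.3% passed in either direction, 971 of them higher and 1280 lower. Both DFO arrays lay below both control arrays for 25 of 50 members (30.0% of all genes) and above both for E2F7 alone (17.1% of all genes). For the same 25 members, all 4 chelator arrays lay below both control arrays, which held for 23.9% of all genes; the chelators share those 2 control arrays, so the counts are not independent.

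The 2 arrays of each chelator differed. The median member stood −0.24 and −0.79 from the control mean on Dp44mT arrays 1 and 2 and −0.095 and −0.41 on DFO arrays 1 and 2, where the median of all genes stood at 0.05, −0.05, −0.08 and −0.03. Array 2 was lower than array 1 for 49 of 50 members in Dp44mT, for 48 in DFO and for 40 in control; among all genes that held for 62.4%, 53.8% and 47.5%. Within sets, the median difference of the members was −0.32 in set 1 and −0.75 in set 2 for Dp44mT, and −0.18 and −0.34 for DFO. Without both chelator arrays of set 2, the median was −0.24 in Dp44mT and −0.095 in DFO, where all genes had 0.05 and −0.08. The error of that fit comes from the 2 control arrays alone, so its calls are not counted here. With only Dp44mT array 2 left out, so that the DFO arrays also set the error, 0 members were called and the smallest adjusted p was 0.203.

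**Figure D1:**
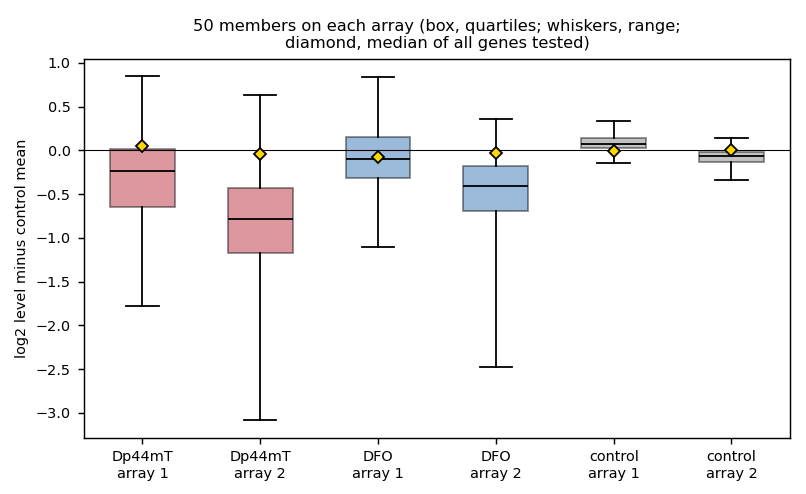
The vertical axis is the log2 level minus the control mean of the same gene, for the 50 members on each of the 6 arrays. Boxes are quartiles, whiskers the full range and diamonds the median of all genes tested. The median member is at −0.24 and −0.79 for Dp44mT and at −0.095 and −0.41 for DFO, while the diamonds stay near 0.

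The promoters of the list are shown because E2F factors are known regulators of many of its members. RefSeq (GRCh38.p14) promoters, from 250 bases before to 50 after the gene start, were matched by symbol for 43 of the 50 members, with 56 promoters in all; POLD3, RPA2, RPA3, GINS4, MCM4, MCM5 and E2F8 had no entry in the table. Words of the E2F motif (TTTCCCGC, TTTCGCGC, TTTGCCGC or TTTGGCGC, either strand) stood in 25 of these 56 promoters (44.6%), and in 1164 of all 35116 RefSeq promoters (3.31%). The CCAAT word, either strand, stood in 55.4% and 34.6%. The 24 members with an E2F word had a median difference of −0.66 in Dp44mT and −0.24 in DFO, and the 19 without one −0.41 and −0.22. A word match is a description of these letters and not a bound site. The promoters printed here are those of the 3 members with the largest Dp44mT difference among those with a match, chosen after their values were seen; capitals mark the E2F words. They lie at chr14:49688165-49688464 (minus strand), chr1:91500862-91501161 (plus strand) and chr20:25407423-25407722 (plus strand).
POLE2: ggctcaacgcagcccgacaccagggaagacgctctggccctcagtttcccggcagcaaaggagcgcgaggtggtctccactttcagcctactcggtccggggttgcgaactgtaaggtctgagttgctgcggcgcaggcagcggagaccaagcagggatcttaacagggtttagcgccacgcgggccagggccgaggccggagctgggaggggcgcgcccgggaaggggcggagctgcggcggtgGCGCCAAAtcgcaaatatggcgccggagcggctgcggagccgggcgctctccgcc
CDC7: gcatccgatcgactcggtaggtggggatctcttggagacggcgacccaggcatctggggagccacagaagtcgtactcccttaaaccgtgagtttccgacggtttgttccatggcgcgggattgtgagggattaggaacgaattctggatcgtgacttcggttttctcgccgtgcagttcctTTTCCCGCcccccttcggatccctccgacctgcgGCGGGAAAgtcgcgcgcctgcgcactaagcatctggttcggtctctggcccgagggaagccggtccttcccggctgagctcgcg
GINS1: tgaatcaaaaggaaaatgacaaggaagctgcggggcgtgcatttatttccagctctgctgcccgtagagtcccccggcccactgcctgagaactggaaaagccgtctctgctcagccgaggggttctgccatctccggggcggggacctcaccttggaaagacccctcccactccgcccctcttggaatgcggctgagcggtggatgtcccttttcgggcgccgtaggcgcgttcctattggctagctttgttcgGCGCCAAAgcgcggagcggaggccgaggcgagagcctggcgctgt
The single word of POLE2 spans bases 246 to 253 of the 300 and so crosses the gene start, the first of the 2 words of CDC7 begins at −68 relative to the start, and that of GINS1 lies just after it, at bases 256 to 263.

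Among the E2F factors, the atypical repressors E2F7 and E2F8 stood on opposite sides of control. E2F8 was at 6.66 and 5.75 in Dp44mT, 8.18 and 6.89 in DFO and 8.59 and 8.30 in control. The 2 Dp44mT arrays were the lowest, the DFO arrays lay between and neither group overlapped control. Its difference was −2.24 in Dp44mT (SE 0.52, 95% interval −3.55 to −0.92, adjusted p = 0.0866) and −0.91 in DFO (SE 0.52, adjusted p = 0.546). E2F7 was at 8.45 and 8.67 in Dp44mT, 8.87 and 8.39 in DFO and 8.16 and 7.91 in control, above control on all 4 chelator arrays. The differences of E2F7 were 0.52 (interval −0.09 to 1.13, adjusted p = 0.258) and 0.59 (interval −0.02 to 1.20, adjusted p = 0.388). The activator E2F2 stood at 8.15 and 8.01 in Dp44mT, 8.62 and 8.75 in DFO and 8.99 and 8.77 in control, with differences of −0.80 (SE 0.18, adjusted p = 0.0829) and −0.20 (adjusted p = 0.695). E2F3 also had −0.80 in Dp44mT, with −0.55 in DFO, and E2F1, the founding activator, had −0.21 and −0.12 with overlapping arrays. A second E2F1 probe set, nearly as bright, gave 0.10 in Dp44mT and −0.01 in DFO. E2F8 had −0.27 in DFO without the set 2 chelator arrays.

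UHRF1, which recruits the maintenance DNA methyltransferase to newly copied DNA, stood at 8.77 and 7.91 in Dp44mT, 9.39 and 9.01 in DFO and 9.56 and 9.48 in control. Its difference was −1.18 in Dp44mT (SE 0.33, adjusted p = 0.118) and −0.32 in DFO (adjusted p = 0.718). CDC25A, the phosphatase that activates CDK2 at the G1/S boundary, was at 7.88 and 7.44 in Dp44mT, 7.79 and 7.41 in DFO and 8.08 and 7.41 in control. All 3 groups of CDC25A overlapped, and its differences were −0.08 in Dp44mT (interval −0.89 to 0.72) and −0.15 in DFO (interval −0.95 to 0.66). Its other 2 probe sets, nearly as bright, gave −0.37 and −0.76 in Dp44mT and −0.04 and −0.06 in DFO, so the Dp44mT value of CDC25A depends on the probe set. Without the set 2 chelator arrays, UHRF1 had −0.75 in Dp44mT and −0.13 in DFO, and CDC25A changed sign, to 0.14 in Dp44mT and 0.04 in DFO.

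Of the origin recognition complex, ORC2 departed most from control. ORC2 stood at 7.04 and 6.39 in Dp44mT, 7.42 and 6.65 in DFO and 8.17 and 8.28 in control. Every chelator array was below both control arrays, by −1.51 in Dp44mT (SE 0.35, interval −2.40 to −0.62, adjusted p = 0.0868) and −1.19 in DFO (SE 0.35, adjusted p = 0.258). A second, dimmer ORC2 probe set gave −2.39 and −1.90. ORC3 stood at 6.86 and 6.42 in Dp44mT, 7.22 and 6.53 in DFO and 7.24 and 7.46 in control, with differences of −0.71 and −0.47. The other subunits ran from −0.56 (ORC5) to 0.43 (ORC1) in Dp44mT and from −0.46 (ORC5) to 0.22 (ORC1) in DFO. ORC1, the subunit whose level cycles with G1/S, and ORC4 thus had positive differences beside the negative ones of ORC2, ORC3 and ORC5, none of them called. ORC3 had −0.13 in DFO without the set 2 chelator arrays.

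The loading factors had the role median nearest to 0 in both chelators. CDT1 stood at 9.17 and 8.70 in Dp44mT, 9.57 and 9.13 in DFO and 9.46 and 9.20 in control, with DFO arrays that overlapped control. Its inhibitor GMNN stood at 10.88 and 10.59 in Dp44mT, 10.99 and 10.69 in DFO and 11.06 and 10.92 in control, again with overlap in DFO. Their differences were −0.40 (SE 0.27) and −0.26 (SE 0.21) in Dp44mT and 0.02 and −0.15 in DFO. CDC6, the ATPase that opens the way for MCM loading, had −0.04 and −0.01, with intervals of −0.88 to 0.81 and −0.85 to 0.83. These intervals are wide and hold both directions. A second CDC6 probe set, nearly as bright, gave 0.24 in Dp44mT and 0.13 in DFO. Without the set 2 chelator arrays, CDT1 had −0.16 in Dp44mT and 0.24 in DFO, and GMNN had −0.11 and −0.0022.

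In the MCM2-7 helicase, 5 of 6 subunits had negative differences in Dp44mT and 6 of 6 in DFO, and MCM3 had the largest. MCM3 was at 10.19 and 9.57 in Dp44mT, 10.46 and 10.32 in DFO and 10.81 and 10.70 in control. Neither chelator group of MCM3 overlapped control, at −0.87 in Dp44mT (SE 0.26, interval −1.52 to −0.23, adjusted p = 0.126) and −0.36 in DFO (SE 0.26, adjusted p = 0.627). MCM6 stood at 10.12 and 9.37 in Dp44mT, 10.28 and 9.79 in DFO and 10.29 and 10.27 in control, so that its DFO arrays overlapped control; the differences were −0.53 and −0.25. MCM2, MCM4 and MCM7 had −0.42, −0.37 and −0.22 in Dp44mT, and MCM5 had 0.11. In DFO these 4 subunits lay between −0.14 and −0.01. Without the set 2 chelator arrays, MCM3 had −0.56 and MCM6 −0.16 in Dp44mT, and MCM6 had 0.00043 in DFO.

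The factors that turn the loaded helicase on had the lowest role median in both chelators, −0.89 in Dp44mT and −0.64 in DFO. For 7 of these 8 genes, CDC45 being the exception, both arrays of each chelator lay below both control arrays. Among all genes that held for 23.9%. CDC7, the origin-firing kinase, stood at 8.29 and 7.10 in Dp44mT, 9.15 and 8.10 in DFO and 9.75 and 9.39 in control. Its Dp44mT difference was −1.87 (SE 0.53, interval −3.22 to −0.53, adjusted p = 0.120) and its DFO difference −0.94 (SE 0.53, adjusted p = 0.539). DBF4, the activating subunit of CDC7, had −0.81 in Dp44mT and −1.09 in DFO (SE 0.31 for both). GINS1 was at 8.95 and 8.14 in Dp44mT, 9.80 and 9.09 in DFO and 10.44 and 10.33 in control. Its differences were −1.84 (SE 0.37, interval −2.77 to −0.90, adjusted p = 0.0686) and −0.94 (adjusted p = 0.375). The other GINS subunits lay in the same direction, with −0.82, −1.11 and −0.97 for GINS2, GINS3 and GINS4 in Dp44mT and −0.39, −0.67 and −0.62 in DFO. CDC45, the third component of the active helicase, had −0.01 and 0.17 with overlapping arrays, and MCM10, which helps open the origin, −0.79 and −0.34. Without the set 2 chelator arrays, CDC7 had −0.42 and GINS1 −0.58 in DFO.

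**Figure D2:**
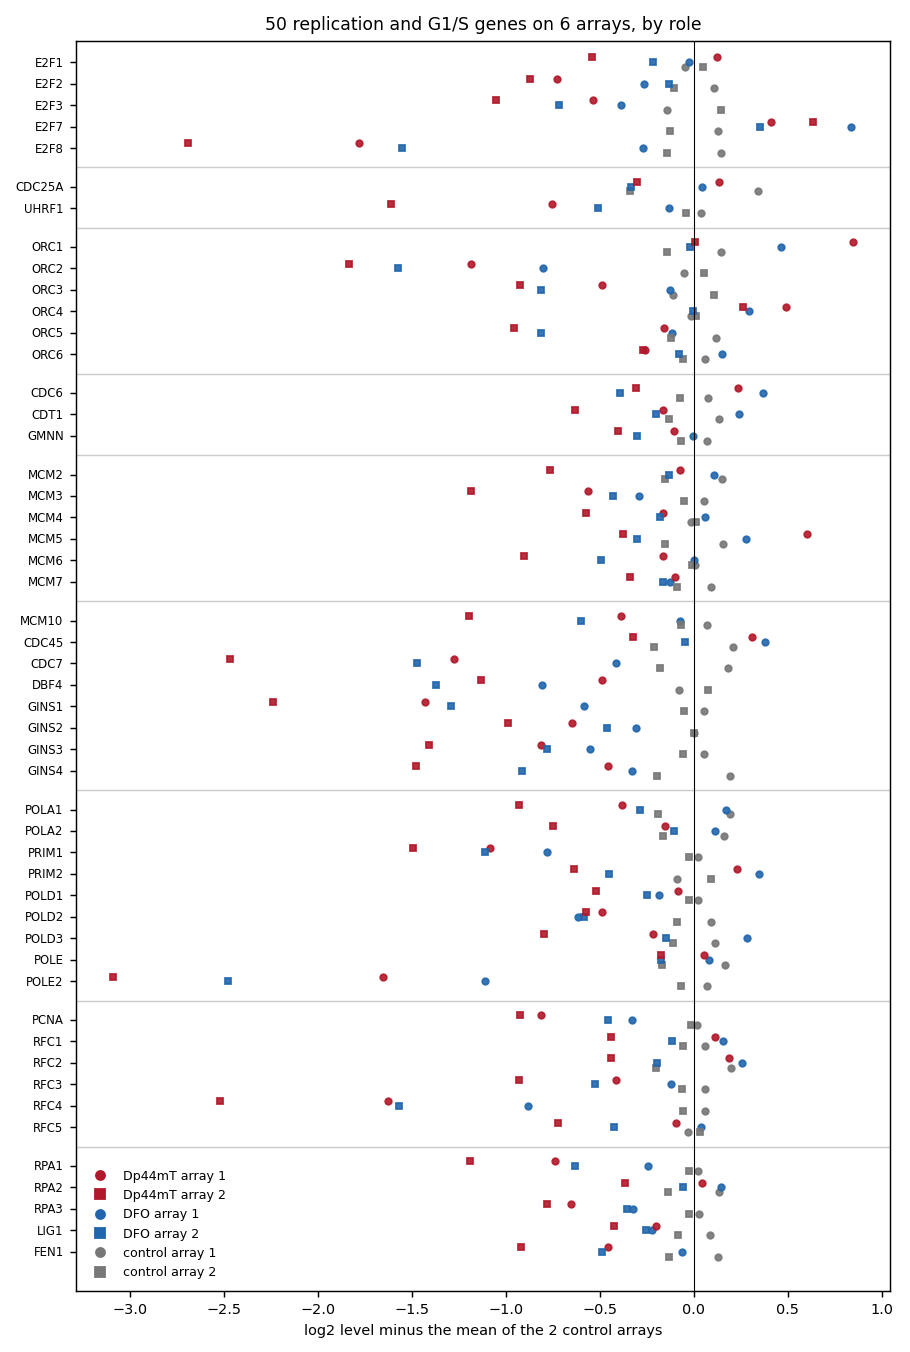
Each row is 1 of the 50 genes, grouped by role from E2F factors (top) to RPA, ligase and FEN1 (bottom), and the horizontal axis is the log2 level minus the mean of the 2 control arrays. Circles are array 1 and squares array 2 of Dp44mT, DFO and control. E2F7 is the only gene with all 4 chelator arrays above both control arrays, and 25 genes have all 4 below.

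Among the polymerases, 2 small subunits stood out from their partners. POLE2, the accessory subunit of the leading-strand polymerase epsilon, was at 6.97 and 5.54 in Dp44mT, 7.52 and 6.15 in DFO and 8.70 and 8.56 in control. As deposited, its intensities were 119 and 20.5 in Dp44mT, 214 and 46.9 in DFO and 487 and 477 in control. This was the largest difference of the list in both chelators, −2.37 in Dp44mT (SE 0.63, interval −3.98 to −0.76, adjusted p = 0.109) and −1.79 in DFO (SE 0.63, interval −3.40 to −0.18, adjusted p = 0.326), with arrays 1 and 2 far apart in both chelators. POLE, the catalytic subunit of the same enzyme, had −0.06 and −0.05. PRIM1 was at 8.23 and 7.83 in Dp44mT, 8.54 and 8.21 in DFO and 9.34 and 9.30 in control, with tight control arrays and no overlap. Its differences were −1.29 (SE 0.23, interval −1.86 to −0.71, adjusted p = 0.0537) and −0.94 (SE 0.23, interval −1.52 to −0.37, adjusted p = 0.180). PRIM2, the large primase subunit, had −0.20 and −0.05. Polymerase alpha genes POLA1 and POLA2 had −0.66 and −0.45 in Dp44mT and −0.06 and 0.00 in DFO. Of polymerase delta, POLD2 had similar values in both chelators, −0.53 and −0.60, while POLD1 and POLD3 had −0.30 and −0.51 in Dp44mT and −0.22 and 0.07 in DFO. POLE2 had −1.11 in DFO without the set 2 chelator arrays.

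PCNA, the sliding clamp, stood at 11.03 and 10.92 in Dp44mT, 11.51 and 11.38 in DFO and 11.86 and 11.83 in control, so that the 3 groups did not overlap. The differences were −0.87 in Dp44mT (SE 0.17, interval −1.29 to −0.45, adjusted p = 0.0623) and −0.39 in DFO (SE 0.17, adjusted p = 0.405). RFC4, a subunit of the clamp loader, was at 8.28 and 7.38 in Dp44mT, 9.02 and 8.33 in DFO and 9.96 and 9.85 in control. Its differences were −2.07 (SE 0.38, interval −3.05 to −1.10, adjusted p = 0.0597) and −1.23 (SE 0.38, adjusted p = 0.282). The other 4 loader subunits were closer to control: RFC3 had −0.67 in Dp44mT and RFC5 −0.41, and RFC1 and RFC2 had −0.16 and −0.13 with arrays that overlapped control. In DFO those 4 ran from −0.32 (RFC3) to 0.03 (RFC2).

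Of the single-strand binding protein RPA, RPA1, the large DNA-binding subunit, stood at 9.41 and 8.97 in Dp44mT, 9.91 and 9.52 in DFO and 10.18 and 10.13 in control. RPA3, the smallest subunit, was at 10.93 and 10.80 in Dp44mT, 11.26 and 11.23 in DFO and 11.61 and 11.56 in control. Both genes had Dp44mT lowest, DFO between and control highest with no overlap. Their Dp44mT differences were −0.96 (SE 0.24, adjusted p = 0.0980) and −0.72 (SE 0.16, adjusted p = 0.0839), and those in DFO −0.44 and −0.34. RPA2 had −0.16 and 0.04. FEN1, the nuclease that trims Okazaki fragments, had −0.69 and −0.28, and LIG1, the ligase that joins them, −0.31 and −0.24. RPA1 had −0.24 in DFO without the set 2 chelator arrays.

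**Figure D3:**
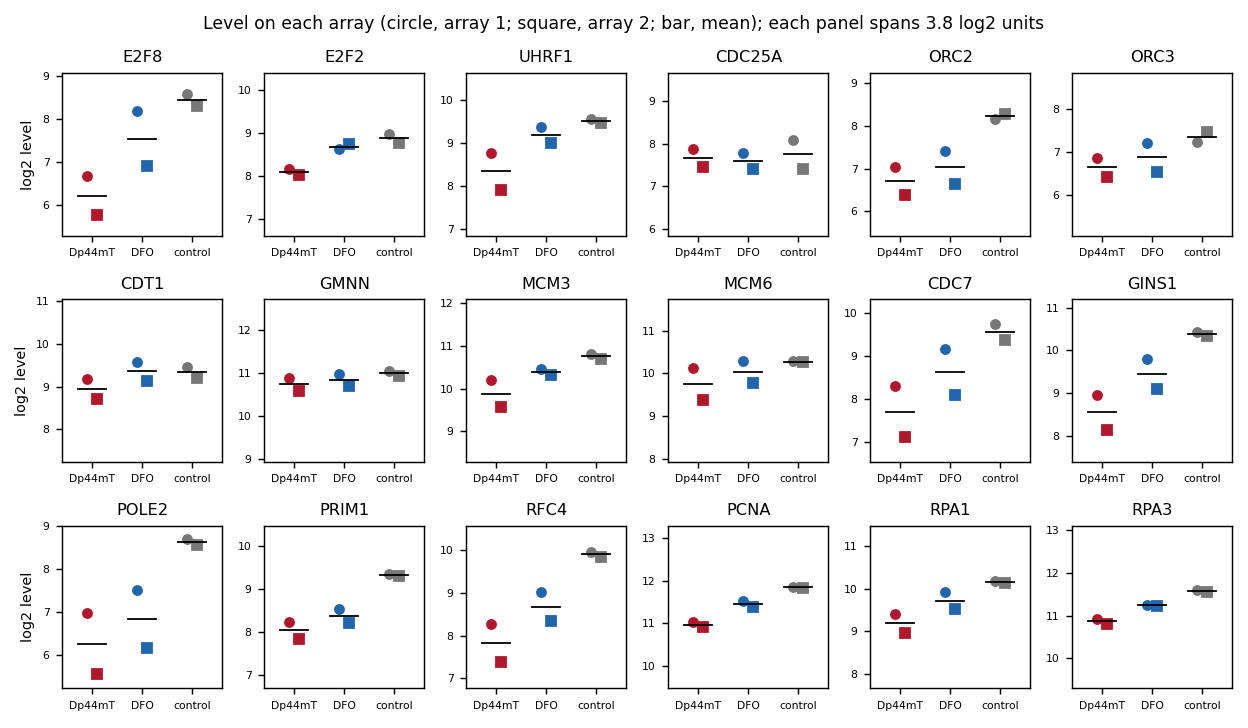
The level (log2) of the 2 members of each role with the largest difference from control, on each array: circles are array 1, squares array 2 and bars the mean of 2 arrays, and every panel spans 3.8 log2 units. All 4 chelator arrays lie below both control arrays except in CDC25A, CDT1, GMNN and MCM6, whose DFO arrays overlap control. These genes were picked for the size of their difference, so their count cannot be set against the 23.9% of all genes with all 4 below. Of all 50 members, 25 have all 4 below.

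Set side by side, the role medians in Dp44mT were −0.80 for the E2F factors, −0.63 for CDC25A and UHRF1, −0.41 for origin recognition, −0.26 for loading and −0.39 for MCM2-7. They were −0.89 for activation, −0.51 for polymerases, −0.54 for the clamp and its loader and −0.69 for RPA, LIG1 and FEN1. In DFO the medians, in the same order of roles, were −0.20, −0.23, −0.21, −0.01, −0.10, −0.64, −0.06, −0.26 and −0.28. Many of these medians rested on set 2, whose chelator arrays were dim. In Dp44mT, MCM2-7 had −0.18 in set 1 and −0.60 in set 2, the clamp and its loader −0.27 and −0.81, and activation −0.65 and −1.25. In DFO, origin recognition had 0.04 in set 1 and −0.36 in set 2, loading 0.11 and −0.23, and the clamp and its loader −0.06 and −0.45, so that the first 2 of these changed sign. Activation had −0.56 and −0.72 in DFO. Differences between roles were not tested. Within a role the Dp44mT differences ran from −2.37 to −0.06 for the polymerases but only from −0.40 to −0.04 for loading.

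**Figure D4:**
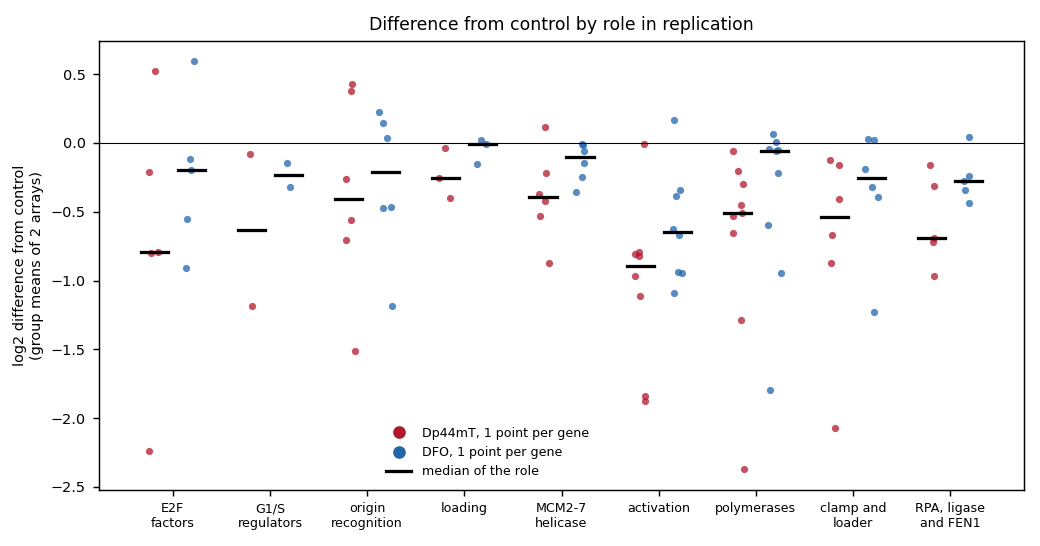
Each point is 1 gene's log2 difference from control (means of 2 arrays), for Dp44mT and DFO in each of 9 roles, and bars are role medians. The activation genes have the lowest median for both chelators, −0.89 and −0.64, and the loading genes the highest in Dp44mT, −0.26.

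Several members have more than 1 probe set. The list had 91 probe sets, with 24 members on 1 and 26 on several, and each gene's value above is that of its brightest one. Of 41 further probe sets, 38 were above the filter limit, and in each chelator 8 of these had the other sign. MCM4, for example, had −0.06 in DFO, and its other 4 probe sets gave 0.26, −0.39, 0.18 and 0.00. For POLA2 in Dp44mT the other probe sets gave 0.14 and 0.16 beside −0.45, and for RFC1 a nearly as bright one gave 0.14 beside −0.16. E2F7 had a second probe set at 0.46 in Dp44mT and 0.25 in DFO, and MCM10 had 2 further ones at −1.34 and −0.86 in Dp44mT. POLE2, PRIM1, GINS1, RFC4, CDC7, E2F8 and PCNA each rest on 1 probe set. PRIM2 was also named on 4 probe sets shared with another gene, which were not used here.

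Dp44mT was also compared with DFO directly, although the doses, 25 and 250 µM, differ. In limma 0 of 50 members were called, as was 0% of all genes. An unadjusted p under 0.05 was found for 4 members (E2F2, E2F8, UHRF1 and PCNA), all lower in Dp44mT. Among all genes 4.26% passed in either direction. The median difference was −0.30, against 0.02 over all genes, and 44 of 50 members were negative (88.0%, against 46.7% of all genes). That median was −0.53 without Dp44mT array 1, −0.0081 without Dp44mT array 2, −0.070 without DFO array 1 and −0.51 without DFO array 2, so it depended on each of the 4 arrays. Both Dp44mT arrays lay below both DFO arrays for 15 members (30.0%, against 13.1% of all genes) and above them for 1, POLD2, where 14.4% of all genes did so. Within each set, Dp44mT was below DFO in both sets for 38 of 50 members (76.0%, against 33.2% of all genes). E2F8 had the largest difference, −1.33 (SE 0.52, interval −2.64 to −0.01, adjusted p = 0.922), then CDC7 with −0.93, GINS1 with −0.90, UHRF1 with −0.86 and RFC4 with −0.85. DBF4 had 0.28 and was the highest.

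A further 43 genes of the same pathways, such as cyclins E and A, pocket proteins, fork protection factors and histone chaperones, were all measured. In Dp44mT 1 of the 43 fell and 0 rose, beside 3.37% of all genes called. The count at an unadjusted p under 0.05 in limma was 17, all lower (39.5%, where 24.1% of all genes passed in either direction). In Dp44mT 36 were negative (83.7%, against 48.3% of all genes), with a median of −0.63 (−0.29 in set 1 and −0.85 in set 2). The gene that fell was HELLS, a chromatin remodeller of the SNF2 family that supports DNA methylation. HELLS stood at 8.38 and 8.13 in Dp44mT, 9.50 and 9.27 in DFO and 9.64 and 9.80 in control. It fell by 2.76-fold in Dp44mT (log2 −1.46, SE 0.20, adjusted p = 0.0322) and had −0.33 in DFO (adjusted p = 0.560). The HELLS call was lost on the deposited scale (adjusted p = 0.112), with array medians subtracted (0.0629), with only 2 groups in the fit (0.0525), without any 1 of the 6 arrays (between 0.0525 and 0.336) and when its probe sets were averaged, which gave −0.80 (0.153). In DFO 0 of 43 were called, beside 1.10% of all genes. At an unadjusted p under 0.05 in limma there were 5, all lower (11.6%). Among all 16868 genes 13.3% passed in either direction, 971 of them higher and 1280 lower. In DFO 33 were negative (76.7%, against 53.5% of all genes), with a median of −0.25 (−0.11 in set 1 and −0.40 in set 2). Without both set 2 chelator arrays, HELLS had −1.34 in Dp44mT and −0.22 in DFO.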

How the data were processed

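RNA from DMS-53 cells was measured on 6 Affymetrix arrays, 2 in each of 3 groups taken from the sample titles. The deposited values are linear probe set intensities; per the submitters' processing notes, the authors used Expression Console 1.1 (Affymetrix), and its summarization and normalization are not given in the sources used here. The array medians differed, so log2(intensity + 16) was quantile normalized, and fold changes of dim genes are understated on that scale. Of 54675 probe sets, 41097 had 1 symbol in the platform annotation, 1801 several and 11777 none. Each gene was represented by its brightest probe set with 1 symbol, and genes whose mean level was under 5.55, the 25th percentile over probe sets, were left out.

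All 16868 genes were fitted with limma 3.58.1 in R 4.3.3 on the 3 groups, two-sided (3 residual and 2.22 prior degrees of freedom), and p-values were adjusted by Benjamini-Hochberg within each comparison, with calls at 0.05. The script was tested on simulated data with known answers. The number of arrays limits precision: the median half-width of the members' 95% intervals was 0.68. With 2 arrays a group, the smallest two-sided p of an exact permutation is 0.333, so none was run. The members and lists were chosen with earlier results of these data known. Values were given for every array for the 2 members of each role with the largest chelator difference, and for called genes; the other members were to be described by range and count, and those given single values beyond that, E2F7 among them, were added after their values were seen. The rule for printing promoters asked for called members and for more promoters than were printed here. As no member was called, that condition was dropped. Alternatives tried were other scalings, pseudocount, filter, probe set rule, blocking by set, 2-group fits and leaving out arrays.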

Additional observations from a re-analysis of the deposited data

How the results depend on the processing

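Counts of members called, 0 in each comparison, stayed at 0 in DFO against control and in Dp44mT against DFO under every alternative run. In Dp44mT against control, 1 member (PRIM1, adjusted p = 0.0481 in limma) was called with probe sets averaged. Calls without both chelator arrays of set 2 are not counted, because that fit takes its error from the 2 control arrays alone. With the set number as a replicate block, 5 were called in Dp44mT (RFC4, E2F8, GINS1, PRIM1 and CDC7, all lower) and 0 in DFO. Nothing in the labels says what a set shares; set deviations correlated at 0.84 between Dp44mT and DFO but at −0.35 and −0.25 between control and the chelators. With the crossed pairing, a block chosen after seeing the data, 14 members were called in Dp44mT and 0 in DFO. Leaving out any 1 array gave 0 calls among the members. The member median kept its sign in all 3 comparisons. On the deposited scale it was −1.21 in Dp44mT and −0.56 in DFO, where all genes had medians of −0.50 and −0.32, and with array medians subtracted it was −0.83 in Dp44mT (all genes −0.13). Without both set 2 chelator arrays it was −0.24 in Dp44mT, and leaving out 1 array moved it between −0.79 (without Dp44mT array 1) and −0.24 (without Dp44mT array 2) in Dp44mT and between −0.41 (without DFO array 1) and −0.095 (without DFO array 2) in DFO; the cause was not tested. For 19 genes given by array, 525 of 570 alternative values kept their direction and side of the threshold. Most of these were uncalled values that stayed uncalled, as HELLS in Dp44mT was the only called value in the main fit. Differences that were not called changed sign in 13 alternatives (CDT1, CDC25A and MCM6), and that of HELLS in Dp44mT in 0. Over all genes, 569 were called in Dp44mT (323 higher, 246 lower) and 185 in DFO (175 higher, 10 lower). On the deposited scale these were 25 higher and 41 lower in Dp44mT and 18 and 8 in DFO, and with array medians subtracted 117 and 186 in Dp44mT and 85 and 13 in DFO. The block gave 389 and 520 in Dp44mT, and the crossed pairing 1196 and 1562 in Dp44mT and 398 and 113 in DFO. Fits of only 2 groups gave 59 and 2 in DFO, and leaving out a control array or an array of the chelator compared gave 0. With 2 arrays a group, the error of each gene limits what can be called.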
